A study of Mus musculus with 6 samples.

Results

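The named ribosomal protein pseudogene copies are the genes whose symbol joins a name starting with Rpl or Rps to the ending -ps, such as Rpl38-ps2, a copy of Rpl38. They were taken from the deposited table by symbol alone, whatever their annotated class, which gave 298 of 54532 genes. Each was set beside its parent, the gene named before the ending. Of 62 parent names, 61 occur in the table, and the copy named after Rpl48 has no parent there. The parents include the paralogs Rpl7l1 and Rps4l, and Rps4l is itself annotated as a transcribed processed pseudogene. The libraries come from mouse liver. The HKO group (3 libraries) came from G3bp1-HKO mice, which lack G3bp1 in hepatocytes only, and the Flox group (3 libraries) from G3bp1-Flox litter controls. All mice received a high-fat diet for 12 weeks from 6 weeks of age, so no group on another diet enters the comparison. The sources used here do not give what drives the deletion or which exons it removes, and liver cells other than hepatocytes keep the gene. Nothing in the labels says that every library is a different animal, and p-values then reflect only the spread between the libraries, which may be technical.

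Ribosomal proteins form the large (Rpl) and small (Rps) subunit of the ribosome around ribosomal RNA, and their mRNAs are short and abundant in every cell. Such mRNAs are a common template for reverse transcription and reinsertion into the genome, which leaves intronless copies called processed pseudogenes. Most copies gather mutations and are not thought to make protein, but a young copy can be so like its parent that a sequenced fragment may be assigned to either.

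Each library holds 15804115 to 17954066 reads on genes, as recovered from the deposited FPKM (reads per length and library size). G3bp1, which encodes an RNA-binding protein of stress granules, stood at 4.66, 4.28 and 4.44 FPKM in HKO and at 8.46, 8.46 and 9.10 FPKM in Flox, so each library matched its label. Its log2 difference was -0.83 (SE 0.088, adjusted p = 0.11 in limma, and 0.037 in limma's voom on recovered reads, within 0.037 to 0.838 over the alternatives). Hepatocyte markers were present (summed level 38210 to 47460 FPKM in HKO and 44330 to 46130 FPKM in Flox, with 0 of 6 at 0). Of these, 5 of 6 had a lower mean in HKO (median log2 difference -0.16). In 2 of the 6 every HKO library lay below every Flox library, against 7.21% of all genes tested. Mean levels of other cells' markers differed between the groups too, but 0 markers of any list had an adjusted p under 0.05 in limma. All 6 Kupffer cell markers had a higher mean in HKO. In 3 of them every HKO library lay above every Flox library, against 6.06% of all genes tested. Their summed levels overlapped (120.5 to 179.1 FPKM in HKO and 75.2 to 138.5 FPKM in Flox). All 4 erythroid markers had a lower mean (129.2 to 260.5 FPKM in HKO and 280.4 to 319.8 FPKM in Flox), 2 of them with every HKO library below every Flox library. Of the markers tested, 4 of 5 endothelial, 3 of 5 stellate, 2 of 3 cholangiocyte, 2 of 2 B cell, 1 of 1 T cell and 0 of 2 neutrophil genes were higher, at summed levels under 42 FPKM per list and library, and 1 of 4 neutrophil markers was listed at 0. Their part in the copies' values was not tested, and in bulk tissue fewer cells of a type and less RNA per cell cannot be told apart. Libraries also stood apart within a group. HKO 1 was the highest of the 6 libraries in 32 of 82 tested copies (39%, against 16.1% of all genes tested), and Flox 3 was the lowest in 32 (39%, against 15.4%). HKO 2 and HKO 3 lay together below every other library in 13 copies (15.9%, against 12.1%).

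Of the 298 copies, 283 are annotated as processed pseudogenes, 7 as transcribed processed pseudogenes and 8 as protein-coding genes. A single exon was annotated for 287, as for a reinserted mRNA, and the lengths ran from 151 to 2871 bases with a median of 459.5. They lie on every autosome and on chromosome X, which holds 35. Rpl31 and Rps12, which encode proteins of the large and the small subunit, have the most named copies at 24 each. Rpl21 has 15, and Rpl23a and Rps19 have 14 each. Of the 24 Rps12 copies 15 lie on chromosome X, and 14 of those 15 were listed at 0 in every library.

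The likeness of copy and parent is shown here by the stretch of 60 coding bases, without gaps, in which they differ most. The copies shown are Rps10-ps2 and Rpl30-ps10, whose mean level over the 6 libraries was above that of the parent, and Rpl39-ps and Rpl38-ps2, which were low in 2 HKO libraries. Each stretch is read 5′ to 3′ on the coding strand from GENCODE transcripts on GRCm38, and capitals mark the bases that differ within a pair.
Rps10-ps2 (chr16:20822203-20822262, minus strand): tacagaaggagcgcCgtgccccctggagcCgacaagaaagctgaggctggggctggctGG
Rps10 (chromosome 17, coding bases 379 to 438): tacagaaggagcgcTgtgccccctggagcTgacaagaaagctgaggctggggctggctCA
Rpl30-ps10 (chrX:71803688-71803747, plus strand): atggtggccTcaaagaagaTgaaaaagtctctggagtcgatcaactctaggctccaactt
Rpl30 (chromosome 15, coding bases 1 to 60): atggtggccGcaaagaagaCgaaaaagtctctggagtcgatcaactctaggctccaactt
Rpl39-ps (chr15:102635075-102635134, plus strand): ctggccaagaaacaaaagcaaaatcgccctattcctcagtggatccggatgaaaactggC
Rpl39 (chromosome X, coding bases 37 to 96): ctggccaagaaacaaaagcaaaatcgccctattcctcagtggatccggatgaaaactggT
Rpl38-ps2 (chr6:140747113-140747172, minus strand): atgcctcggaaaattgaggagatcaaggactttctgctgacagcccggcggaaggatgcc
Rpl38 (chromosome 11, coding bases 1 to 60): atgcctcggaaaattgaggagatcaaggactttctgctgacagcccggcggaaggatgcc

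Over the whole coding sequence Rps10-ps2 differs from Rps10 at 5 of 495 bases and Rpl30-ps10 from Rpl30 at 3 of 345. Rpl39-ps differs from Rpl39 at 1 of the 150 coding bases it covers, and Rpl38-ps2 from Rpl38 at 0 of 210, so no base in the last pair tells copy and parent apart.

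Levels ran from 0 to 202.8 FPKM on average over the 6 libraries. A total of 152 copies were listed at 0 in every library, among them Rpl10-ps4 and Rpl10a-ps2. With no reads in a library, up to 3 reads per library could still have been missed by counting error. The other 146 had reads in at least 1 library, and 64 of those stayed below the filter of 0.5 FPKM in at least 3 libraries. The remaining 82 reached that level in at least 3 libraries, whatever their group, and were tested, so a copy that is high in only 1 group also entered. By mean level over the 6 libraries 2 copies reached 100 FPKM, 24 lay between 10 and 100, 38 between 1 and 10, 14 between 0.5 and 1, and 68 above 0 but under 0.5. The tested copies rest on 15 to 11261 reads over the 6 libraries, with a median of 198.5, and 32 of them on fewer than 100. All named copies together took 0.0872, 0.0673 and 0.0586% of the reads in HKO 1, HKO 2 and HKO 3, and 0.0713, 0.0672 and 0.0584% in Flox 1, Flox 2 and Flox 3. The parents took 1.33, 1.09 and 0.952% in HKO and 1.05, 1.01 and 0.909% in Flox. Copies and parents thus had the same highest library, HKO 1, and the same lowest, Flox 3.

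The highest copy was Rpl17-ps10, a copy of the large-subunit gene Rpl17. It stood at 226, 216 and 191 FPKM in HKO and at 208, 192 and 184 FPKM in Flox. The groups overlapped, and the means were 211 ± 17.8 FPKM in HKO and 194.5 ± 12.4 FPKM in Flox (SD, n = 3 each). Rpl17-ps3, of the same parent, stood at 158, 101.3 and 90.6 FPKM in HKO and at 145, 119 and 95.03 FPKM in Flox. HKO 1 and Flox 1 were the highest of their groups, and the groups overlapped here too. Rps16-ps2 had the sequence of its parent without a difference and stood at 79.8, 61.0 and 47.9 FPKM in HKO and at 62.6, 63.2 and 45.5 FPKM in Flox. It kept to 37.3 to 42.8% of the small-subunit gene Rps16 in HKO and to 38.1 to 42.9% in Flox. No base within this copy tells its reads from those of Rps16, so their levels are not separate measurements. Rpsa-ps10, a copy of the laminin receptor and small-subunit gene Rpsa, also kept a steady share, with 23.0 to 25.8% of its parent in HKO and 22.9 to 25.4% in Flox. Among the other copies with the highest levels, Rpl14-ps1 averaged 57.7 ± 6.69 FPKM in HKO and 46.3 ± 10.5 FPKM in Flox. Rpl23a-ps3 averaged 46.2 ± 7.34 FPKM in HKO and 42.5 ± 9.17 FPKM in Flox. Rpl31-ps8 averaged 31.4 ± 13.0 FPKM in HKO and 34.5 ± 9.84 FPKM in Flox. Groups overlapped in each of these copies.

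**Figure D1:**
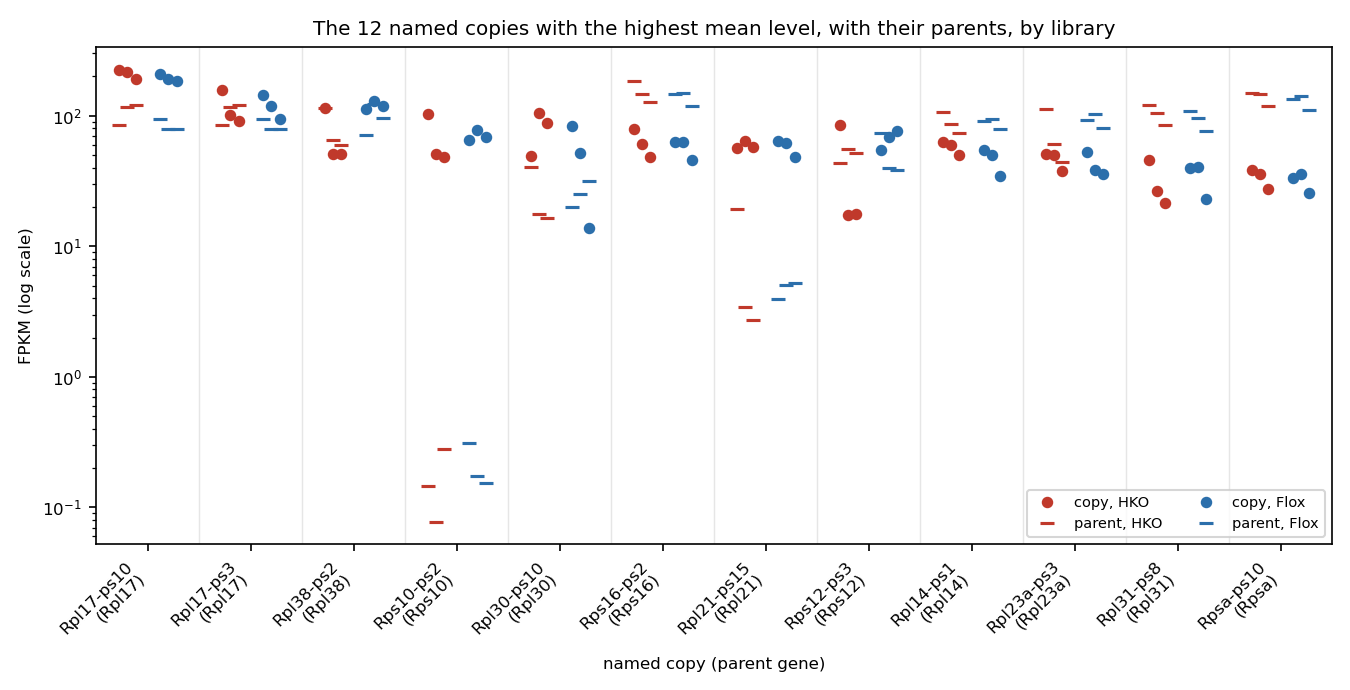
FPKM by library (log axis) of the 12 named copies with the highest mean level (points) and of their parents (dashes), with HKO in red left of Flox in blue. Rps10-ps2 and Rpl21-ps15 lie above their parent in all 6 libraries, and Rps12-ps3 shows 2 HKO libraries, at 17.5 and 17.7 FPKM, far below the other 4.

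A copy usually had a small fraction of the level of its parent. The median tested copy stood at 7.04% of its parent, 13 of 82 lay below 1%, 33 between 1 and 10%, and 26 between 10 and 100%. These percentages compare levels per length, and the deposited length of a parent covers all its annotated exons. In the remaining 10 the mean of the copy was above that of the parent, and in 5 it was so in every library. These 5 were Rpl17-ps10, Rps10-ps2, Rpl21-ps15, Rpl7a-ps5 and Rps10-ps1, and Rpl7a-ps5 and Rps10-ps1 were named after their values were seen. Rps10-ps2 was the extreme case. It stood at 104, 50.7 and 48.1 FPKM in HKO and at 65.7, 77.2 and 68.4 FPKM in Flox, while the parent Rps10, a small-subunit gene, was listed at 0.146, 0.0778 and 0.28 FPKM in HKO and at 0.31, 0.175 and 0.154 FPKM in Flox. Nearly every read given to this pair was therefore given to the copy. Rpl21-ps15, in an intron of Wnk3 on chromosome X, stood at 56.1, 64.0 and 58.0 FPKM in HKO and at 64.5, 62.0 and 48.2 FPKM in Flox. Its parent Rpl21, of the large subunit, stood at 19.1, 3.44 and 2.73 FPKM in HKO and at 3.96, 5.07 and 5.20 FPKM in Flox. HKO 1 was the high library of the parent and the lowest HKO library of the copy.

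Rpl30-ps10, on chromosome X, had a wide spread within both groups. It stood at 49.4, 104 and 87.4 FPKM in HKO and at 84.2, 52.0 and 13.7 FPKM in Flox. The groups overlapped, and Flox 3 alone lay under 20 FPKM (log2 difference 0.94, SE 0.649, adjusted p = 0.719 in limma). The difference rested on that library, at 0.21 without Flox 3, against 1.48 without Flox 1. The parent Rpl30, of the large subunit, stood at 40.6, 17.6 and 16.6 FPKM in HKO and at 20.1, 25.0 and 31.6 FPKM in Flox. In each group the library with the highest level of Rpl30 had the lowest level of the copy, which was at 122, 593 and 527% of Rpl30 in HKO and at 419, 208 and 43.5% in Flox. Parent, named copies and other near-identical copies together came to 152, 99.5 and 86.8 RPM (reads scaled by the library size behind the FPKM) in HKO and to 105, 110 and 106 in Flox.

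Between HKO and Flox 0 of the 82 tested copies were called, a call being an adjusted p under 0.05 in limma over all genes, where 0.00843% of the 11856 genes tested were called. That 1 gene was Gm12411, a copy of Rpl21 without a -ps name, at 4.09, 4.59 and 5.25 FPKM in HKO and 19.7, 23.0 and 17.2 FPKM in Flox (log2 difference -1.89, SE 0.135, adjusted p = 0.0211 in limma). Before adjustment 5 copies (6.1%) had a p under 0.05, against 7.62% of all genes, so the share was near the background. Limma's voom on recovered reads called 0 copies, against 3 of the 11856 genes tested. Of the 82 copies 51 had a higher mean log2 level in HKO and 31 a lower one, with a median difference of 0.04 against -0.01 over all genes. The split depended on single libraries, and under TPM it shifted together with all genes. TPM moved the median of all genes to 0.15, and 66 copies were higher. Relative to the median of all genes 51 copies were higher under TPM and 52 in the analysis reported. Without Flox 3 the split was 37 higher and 45 lower, and without HKO 1 it was 41 of each.

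Of 60 tested parents 45 were higher and 15 lower, 0 were called, and the median difference was 0.09. That median was -0.023 without HKO 1, -0.007 without Flox 3 and 0.27 under TPM, while that of the copies was -0.001 without HKO 1, -0.034 without Flox 3 and 0.21 under TPM. Before adjustment 3 parents (5.0%) had a p under 0.05, against 7.62% of all genes, and limma's voom called 0 parents. Among 79 cytosolic ribosomal protein genes 78 were tested, of which 58 were higher and 20 lower (median 0.08). Of 5 tested ribosomal protein paralogs 2 were higher and 3 lower. Of 18 other mRNAs that carry the same 5′ terminal oligopyrimidine tract, such as elongation factor mRNAs, 13 were higher and 5 lower. Among 656 tested genes of other pseudogene classes or names 311 were higher and 345 lower, with a median of -0.01 and 1 called.

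**Figure D2:**
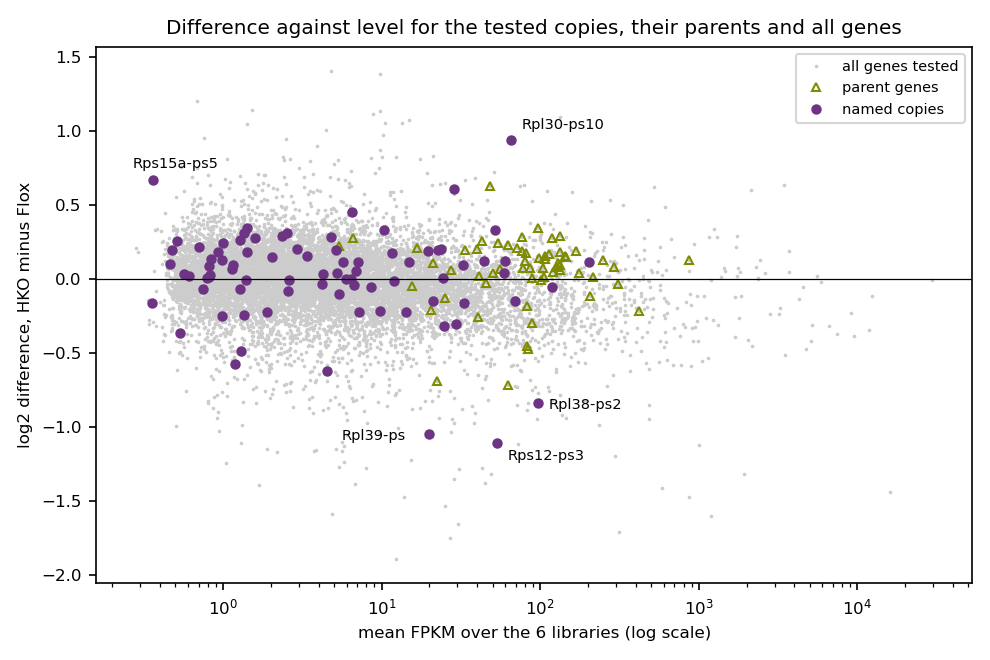
Log2 difference (HKO minus Flox) against mean FPKM over the 6 libraries (log axis) for the 82 tested copies (filled circles), their 60 tested parents (triangles) and all 11856 genes tested (grey). The copies lie on both sides of 0, with Rpl30-ps10 at 0.94 and Rps12-ps3 at -1.11 at the ends on this scale, where low copies are understated.

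HKO libraries lay all above Flox libraries in 4 copies (4.88%), where 6.06% of all genes did so, and all below them in 0 copies, where 7.21% of all genes did so. The 4 were Rps15a-ps5, Rpl28-ps1, Rps12-ps4 and Rpl17-ps9. Rps15a-ps5, in an intron of Lrrc8d, had the smallest p of all copies, on 15 reads. It stood at 0.717, 0.610 and 0.686 FPKM in HKO (5, 4 and 5 reads) and at 0, 0.171 and 0 FPKM in Flox (0, 1 and 0 reads). Its log2 difference was 0.66 (SE 0.106, adjusted p = 0.455 in limma), and over the alternatives its adjusted p ranged from 0.256 to 0.953. With a pseudocount of 0.1 the difference was 2.46 and in voom 2.66 to 2.67, above that of Rpl30-ps10 in the same fits (0.965, and 0.991 to 0.997). Rpl28-ps1, identical to the large-subunit gene Rpl28, stood at 30.4, 41.7 and 30.9 FPKM in HKO and at 27.4, 25.1 and 15.4 FPKM in Flox. All HKO values exceeded all Flox values, without passing (log2 difference 0.61, SE 0.232, adjusted p = 0.648 in limma), and without Flox 3 the difference was 0.36. Rpl28 itself stood at 136, 99.2 and 84.9 FPKM in HKO and at 107, 109 and 83.9 FPKM in Flox. Rps12-ps4 averaged 2.71 ± 0.371 FPKM in HKO and 2.03 ± 0.305 FPKM in Flox. It overlaps exons of Nphs1 on the other strand over 46.1% of its length. Unless the NEBNext Ultra library and the counting kept strand information, reads of both cannot be told apart there. Rpl17-ps9 averaged 1.05 ± 0.187 FPKM in HKO and 0.802 ± 0.0668 FPKM in Flox, on 6 to 13 reads per library. Rps19-ps7, a copy of the gene most often mutated in Diamond-Blackfan anaemia in humans, averaged 1.68 ± 0.232 FPKM in HKO and 1.14 ± 0.432 FPKM in Flox. Rps27a-ps2, whose parent encodes a fusion of ubiquitin and a small-subunit protein, averaged 11.6 ± 1.43 FPKM in HKO and 9.07 ± 1.88 FPKM in Flox. Neither of these 2 separated the groups (adjusted p = 0.667 and 0.668 in limma).

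Among the 6 copies that were lower in HKO with the smallest p, Rpl38-ps2, Rps12-ps3 and Rpl39-ps were low in HKO 2 and HKO 3 but not in HKO 1. Rpl38-ps2 stood at 115, 50.6 and 51.2 FPKM in HKO and at 113, 131 and 118 FPKM in Flox. HKO 1 lay inside the Flox range and the other 2 HKO libraries under 52 FPKM, so the test did not pass (log2 difference -0.84, SE 0.315, adjusted p = 0.648 in limma). Its parent Rpl38, which in mice is needed for the translation of Hox mRNAs, stood at 116, 65.8 and 59.8 FPKM in HKO and at 71.8, 122 and 96.5 FPKM in Flox. Rps12-ps3, an annotated protein-coding copy without a difference from the small-subunit gene Rps12, stood at 85.6, 17.5 and 17.7 FPKM in HKO and at 54.5, 68.6 and 76.2 FPKM in Flox. Here HKO 1 was the highest of all 6 libraries (log2 difference -1.11, SE 0.596, adjusted p = 0.685 in limma). Rps12 stood at 43.1, 55.2 and 51.5 FPKM in HKO and at 74.0, 39.9 and 38.3 FPKM in Flox. Rpl39-ps, of a gene for a small protein near the exit tunnel of the ribosome, stood at 34.7, 5.95 and 6.07 FPKM in HKO and at 25.9, 26.8 and 19.7 FPKM in Flox (log2 difference -1.05, SE 0.627, adjusted p = 0.688 in limma). Rpl39 was low in the same libraries, at 122, 53.0 and 46.5 FPKM in HKO and 91.6, 100.3 and 88.4 FPKM in Flox. Of the rest, Rpl31-ps16 averaged 0.344 ± 0.211 FPKM in HKO and 0.728 ± 0.215 FPKM in Flox on 1 to 6 reads per library, and its log2 difference was -0.35 without HKO 1 and -0.40 for HKO 1 alone, against -0.37 with all libraries. Rpl7a-ps3 averaged 0.96 ± 0.679 FPKM in HKO and 1.64 ± 0.141 FPKM in Flox. Rps18-ps3 averaged 3.44 ± 2.18 FPKM in HKO and 5.54 ± 2.03 FPKM in Flox.

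Without HKO 1 limma called 13 genes (0.11% of those tested), 12 lower and 1 higher. Of these 4 were named copies, all lower: Rpl38-ps2, Rps12-ps3, Rpl39-ps and Rps15a-ps6. They made up 30.8% of the genes called and 4.88% of the tested copies. The log2 differences in that fit were -1.23, -1.85, -1.83 and -1.10, with adjusted p of 0.0354 for Rps12-ps3 and Rpl39-ps and of 0.0498 for the other two in limma. Over all alternatives these ranged from 0.0354 and 0.0498 up to 0.989. Rps15a-ps6, named after its values were seen, stood at 2.44, 0.152 and 0.137 FPKM in HKO (17, 1 and 1 reads) and at 1.66, 1.37 and 1.36 FPKM in Flox (10, 8 and 9 reads). It lies on the strand of Nudcd3 in an intron of that gene. A fit of HKO 1 alone against Flox assumes that the lone library varies like the others, so only its log2 differences are given. There Rps12-ps3, Rpl39-ps and Rps15a-ps6 were higher, at 0.37, 0.52 and 0.48. In these 3 copies HKO 1 lay above every Flox library, and HKO 2 and HKO 3 lay below every one. Rps10-ps2, not called without HKO 1, had the same order. The parent gene Rps29 had it too (108.8, 24.5 and 28.2 FPKM in HKO, 53.0, 84.3 and 78.0 FPKM in Flox). So did the parents Rps27, Rpl39, Rpl23a, Rpl36 and Rpl36a, while Rpl38, Rps12 and Rps15a did not. Among the other 9 genes called without HKO 1 were Rps27rt, a copy of Rps27 (256, 54.8 and 40.1 FPKM in HKO, 144, 159 and 171 FPKM in Flox), and Gm12411. Also among those other genes were Ndufb1-ps and the tRNA gene mt-Tp (1378, 377 and 406 FPKM in HKO, 1281, 1379 and 1235 FPKM in Flox). Low values in HKO 2 and HKO 3 were thus not limited to ribosomal protein copies. Of the 13 genes called 9 are annotated as pseudogenes of some class, and all but Ndufb1-ps are under 500 bases long. Of the 11856 genes tested, 656 besides the named copies had a pseudogene class, and 10616 were at least 1000 bases long. Whether length played a part in these calls was not tested.

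**Figure D3:**
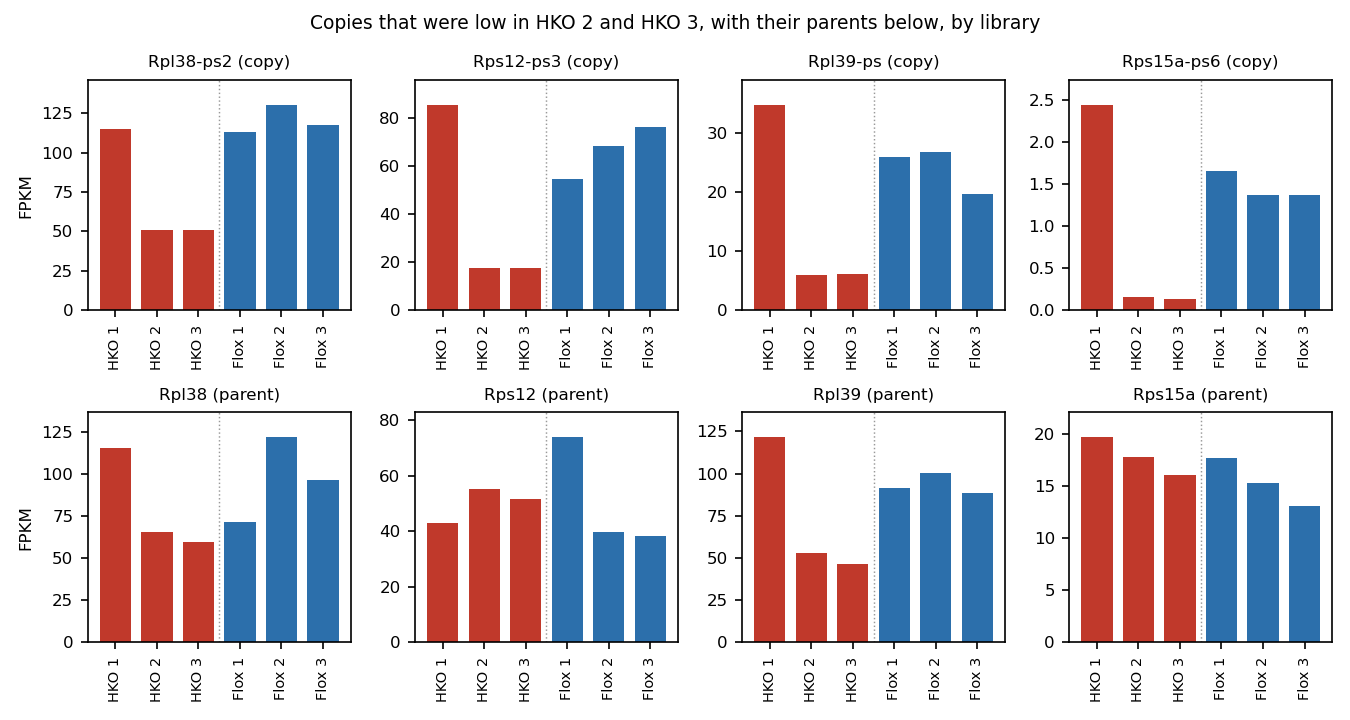
FPKM by library of the 4 named copies called without HKO 1 and, in the lower row, of their parents, with HKO in red left of Flox in blue and each axis starting at 0. In each copy HKO 2 and HKO 3 are the lowest libraries. Rpl38 and Rpl39 are low in the same libraries, whereas Rps12 and Rps15a are not.

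Adding parent, named copies and other genes of at least 97% identity to a copy gave a level that does not depend on which of them a read was assigned to. This holds only for reads given to a gene within the sum. Shared reads that were dropped or placed on a gene outside it are missing, and how such reads were handled is not known. For Rps12 the named copies took 44.0, 10.7 and 10.7 RPM in HKO and 28.6, 35.4 and 39.1 in Flox, and the parent 87.5, 112.0 and 104 in HKO and 150, 80.8 and 77.7 in Flox. The sum was 132, 123 and 115 in HKO and 178, 116 and 117 in Flox, so HKO 2 lay within the Flox range and HKO 3 just under its lower end. For Rpl39 the sum was 180, 76.9 and 67.6 RPM in HKO and 135, 148 and 130 in Flox, nearly all of it in the parent, so HKO 2 and HKO 3 stayed below Flox. For Rpl38 it was 87.8, 47.1 and 44.0 in HKO and 63.9, 94.8 and 77.9 in Flox, again with HKO 2 and HKO 3 lowest. For Rps15a it was 127, 114 and 104 in HKO and 114, 98.4 and 84.8 in Flox, with no such pair. All its named copies took only 2.28 to 3.21 RPM per library, so this sum could not show a change in Rps15a-ps6. For Rps10 the sum was 62.8, 30.4 and 28.5 in HKO and 41.2, 48.1 and 39.3 in Flox, carried almost wholly by copies. Here too HKO 2 and HKO 3 lay below Flox. The HKO mean of the sum was 0.897 times the Flox mean for Rps12, 0.786 times for Rpl39, 0.756 times for Rpl38, 1.16 times for Rps15a, 0.946 times for Rps10 and 1.06 times for Rpl30.

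**Figure D4:**
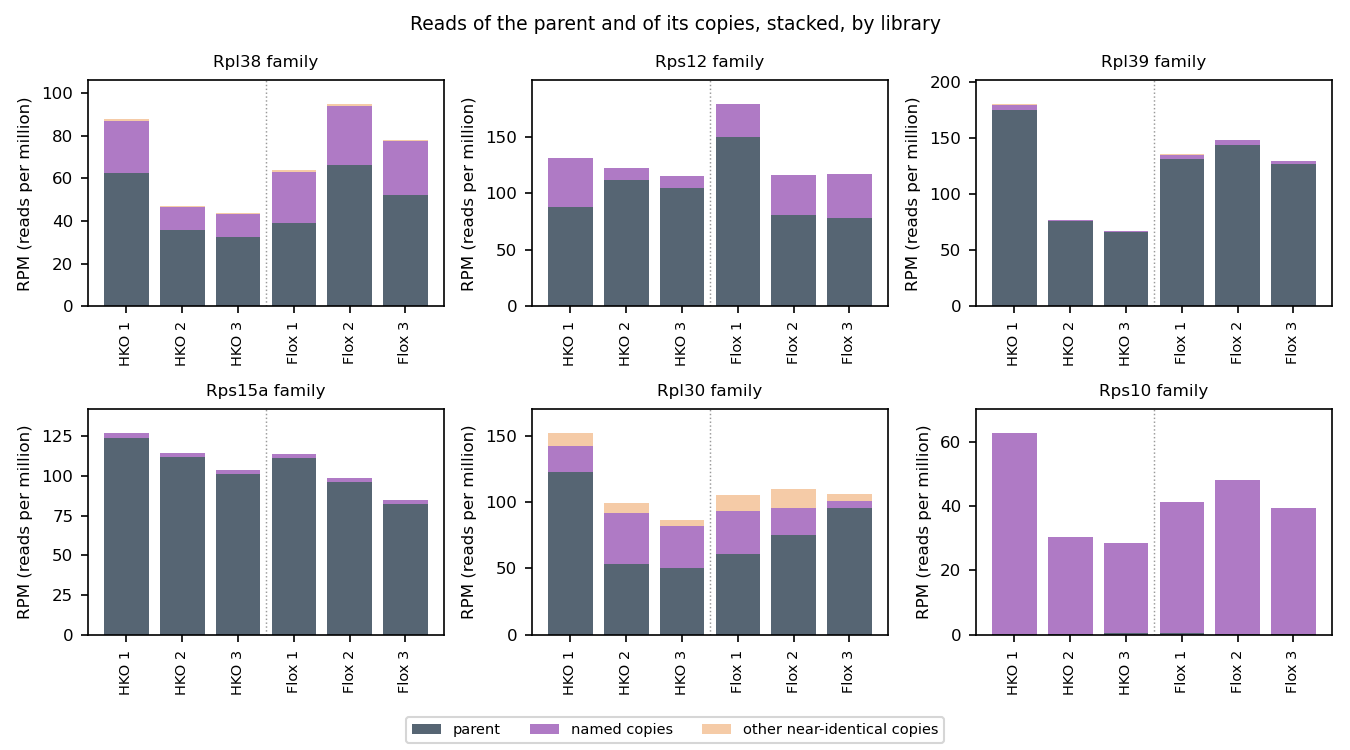
Stacked bars give reads per library size (RPM) of the parent (dark), its named copies (purple) and other near-identical copies (light) by library for 6 parents, with HKO left of Flox. In the Rps12 panel the share of copies shrinks to 10.7 RPM in HKO 2 and HKO 3 while the total stays at 123 and 115, and in the Rpl39 panel the total itself is 76.9 and 67.6.

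Reads shared with other genes limit nearly all of these values. A copy was counted as shared where blastn found at least 97% identity over at least 80% of its length in a transcript of another gene. This held for 146 of 298 copies and for 78 of the 82 tested, with a median of 5 such genes per tested copy and up to 35 (Rpl21-ps15). The closest transcript was the parent for 149 copies, another named copy for 90, some other gene for 55, and 4 had no match. Of 291 copies that aligned to the parent over at least 80% of their length, 13 matched it without a difference. Every stretch of 100 bases was also present elsewhere for 31 copies, of which 17 were tested and 10 listed at 0. No such stretch was shared for 118 copies, of which 3 were tested and 103 listed at 0.

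The level of a copy went with its likeness to the parent. Of 59 copies at least 99% identical to the parent 2 were listed at 0 and 50 were tested, and their median of the mean level was 5.12 FPKM. Of 68 copies between 97 and 99% 20 were at 0 and 25 were tested (median 0.196 FPKM). Of 38 between 95 and 97% 21 were at 0 and 5 were tested, and of 126 below 95% 105 were at 0 and 2 were tested. The Spearman correlation between identity and mean level was 0.73 over 291 copies, which share parents, libraries and reads and are not independent. Between the level of the parent and that of the copy the Spearman correlation was -0.01. How much of the level of a near-identical copy came from its own locus cannot be told apart from reads of its parent in these values. An open reading frame of at least 95% of the parent's codons was kept by 153 of 296 copies measured, by 64 of the 82 tested and by 53 of the 152 listed at 0. Of the 298 copies 70 lie in an intron of a protein-coding gene, 20 of them on its strand, and 27 of the 70 were tested.

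**Figure D5:**
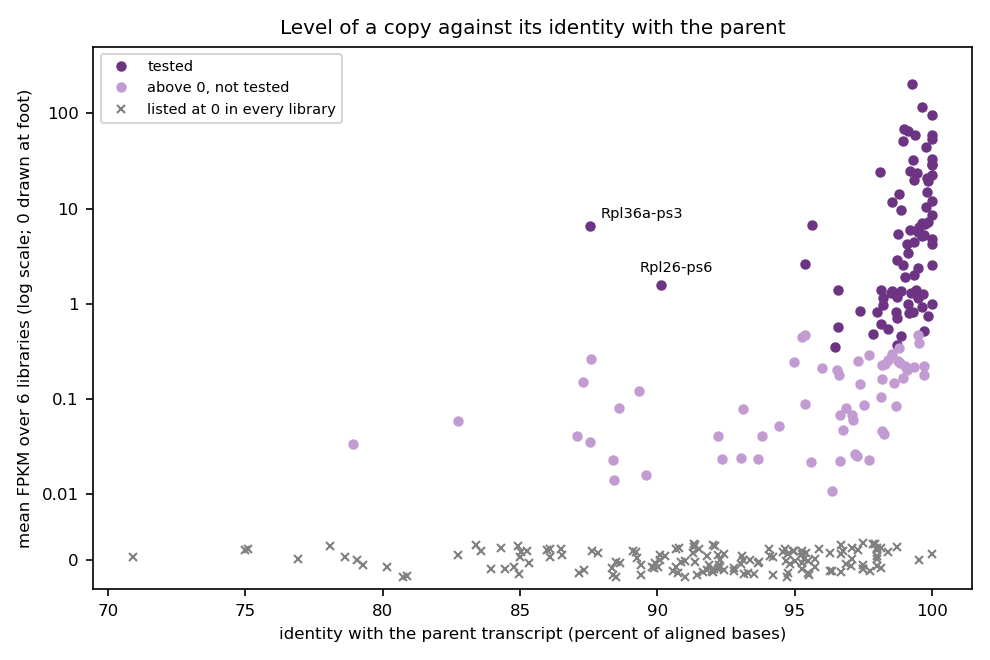
Mean FPKM over the 6 libraries (log axis, with 0 drawn at the foot) against percent identity with the parent for 291 copies, dark where tested, light where above 0 and not tested, crosses where listed at 0. Tested copies crowd at 97% and above, and Rpl26-ps6 and Rpl36a-ps3 are labelled as tested copies of lower identity.

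Few copies were measured on sequence of their own. Of the 3 tested copies without a shared stretch of 100 bases, Rpl39-ps has few such stretches at 151 bases, and Rpl26-ps6 was named after its values were seen. Rpl26-ps6, a copy of a large-subunit gene with 90.12% identity, stood at 1.56, 0.966 and 3.11 FPKM in HKO and at 1.35, 0.776 and 1.78 FPKM in Flox, with overlapping groups (log2 difference 0.28, SE 0.291, adjusted p = 0.786 in limma). Rpl36a-ps3, at 87.54% identity with Rpl36a, was the highest copy under 95%, at 9.13, 6.72 and 6.72 FPKM in HKO and 5.47, 7.76 and 3.15 FPKM in Flox. Its closest gene was the intronless paralog Rpl36al, so its name does not give its nearest relative.

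In the families with the most named copies the reads lay in few of them. Of 24 Rps12 copies 16 were listed at 0 and 3 were tested, namely Rps12-ps3, Rps12-ps4 and Rps12-ps9 (0.989, 1.80 and 0.811 FPKM in HKO, 1.14, 1.35 and 0.746 FPKM in Flox). Rps12-ps1, Rps12-ps10, Rps12-ps19, Rps12-ps24 and Rps12-ps26 had 0 to 7 reads per library. Of 24 Rpl31 copies 17 were listed at 0 and 3 were tested, namely Rpl31-ps8, Rpl31-ps16 and Rpl31-ps13 (0.298, 0.792 and 0.714 FPKM in HKO, 1.21, 0.178 and 0.472 FPKM in Flox). Rpl31-ps9, Rpl31-ps11, Rpl31-ps12 and Rpl31-ps14 had 0 to 6 reads per library. Rpl31-ps8 holds the parent's sequence without a difference and stood at 25.0 to 38.2% of the level of Rpl31 in HKO and at 30.4 to 41.7% in Flox. At the edge of the filter, Rps2-ps6 stood at 0.132, 0.561 and 0.126 FPKM in HKO and 0.609, 0.630 and 0.0696 FPKM in Flox and was tested. Rpl31-ps9 stood at 0.597, 0.476 and 0.428 FPKM in HKO and 0.516, 0.356 and 0.472 FPKM in Flox and was not.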

How the data were processed

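The authors deposited 1 table of FPKM per gene and library, from RNA isolated on RNeasy Plus columns, 1.3 µg of which entered a NEBNext Ultra library per the labels' protocols. Builds GRCm38 and mm10 are named per the submitters' processing notes, while the sources used here do not give aligner, counter or annotation. FPKM times deposited gene length came to whole steps for 100% of values (within 0.02 of a step). Taken as reads, these summed to 15804115 to 17954066 per library, and the library size behind the FPKM was 0.9343 to 1.0551 times that sum. Depth intervals and floors cover counting error only.

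HKO was compared with Flox by limma 3.58.1 (R 4.3.3, statmod 1.5.0; trend, robust, two-sided) on log2(FPKM + 1), a scale that understates changes of low genes. Genes entered that reached 0.5 FPKM in 3 or more of 6 libraries, with Benjamini-Hochberg adjustment over all 11856 and a threshold of 0.05. For 3 against 3 libraries an exact permutation test cannot go below p = 0.1. Limma's voom on recovered reads, other filters, pseudocounts and scalings, a replicate block and leaving out each library were alternatives. The fit was tested on simulated data with independent noise per gene, which hold no reads shared between copies. Transcripts of GENCODE M21 were compared by blastn 2.17.0, and stretches of 50, 100 and 150 bases were searched in both strands.

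Named with values were the 12 highest copies, the 6 with the smallest p in each direction, copies called, all copies of the parents with the most copies, those at the filter's edge, and 2 listed at 0. Members and lists were chosen with earlier results of these data known. Others are said to be named after their values were seen, and 2 copies are not reported here.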

Additional observations from a re-analysis of the deposited data

How the results depend on the processing

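The count of named copies called was 0 in every alternative except leaving out 1 library, where it ranged from 0 to 4, with 4 without HKO 1. The count over all genes, 1 in the analysis reported, ranged from 0 to 13 with 1 library left out and was 13 without HKO 1. It was 0 with no filter, 2 at a mean FPKM of at least 5, and 3 in limma's voom with TMM and likewise 3 with the deposited library sizes, where G3bp1 passed at -0.95 and -0.96. With the replicate block it was 0, and the block changed no call on a copy. Same-numbered libraries deviated together by a correlation of 0.02 to 0.07 only, so the numbers do not show a pairing. The median log2 difference of the tested copies was 0.21 under TPM. HKO 1 alone against Flox, an alternative chosen after seeing the data, gave medians of 0.22 for copies and 0.34 for parents, whose medians turned below 0 without HKO 1 or Flox 3. Shared copies numbered 249 at 90% identity and 82 at 99%.

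Single copies that did not pass changed direction as follows. Their cause was not tested. Under TPM Rpl17-ps3 was at 0.12, Rps10-ps2 at 0.027 and Rpl31-ps8 at 0.01. Under quantile normalization Rpl17-ps3 was at 0.085 and Rpl31-ps13 at -0.012. For HKO 1 alone, Rpl17-ps3 was at 0.42, Rps10-ps2 at 0.56, Rpl21-ps15 at -0.041, Rps12-ps3 at 0.37, Rpl31-ps8 at 0.45, Rps18-ps3 at 0.13, Rpl39-ps at 0.52, Rps12-ps9 at -0.053, Rpl31-ps13 at -0.27 and Rps15a-ps6 at 0.48. With 1 library left out the ranges were -0.29 to 0.10 for Rpl17-ps3, -0.50 to 0.047 for Rps10-ps2, -0.061 to 0.30 for Rps16-ps2, -0.093 to 0.12 for Rpl21-ps15, -0.47 to 0.066 for Rpl31-ps8, -0.045 to 0.23 for Rpsa-ps10, -0.12 to 0.19 for Rps12-ps9, -0.18 to 0.27 for Rpl31-ps13 and -0.013 to 0.52 for Rpl26-ps6.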
